A study of Mus musculus with 10 samples.

Results

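Inorganic ion exchangers and cotransporters are membrane proteins that move sodium, protons, chloride, bicarbonate, calcium, phosphate and sulfate across the epithelium. Their genes were followed in mouse intestinal organoids, which are small cultured epithelia that form several of the cell types of the gut lining. The members were all gene symbols of the array's probe-to-gene table that belong to the Slc4a, Slc8a, Slc9a, Slc12a, Slc20a, Slc26a or Slc34a families, plus Cftr and Slc13a1. This gave 44 genes of 19505 measured, each with 1 probe set. The rule itself used names only, but it was set with earlier results of these data known. 5 organoid samples were labelled knockout (KO) for IκBa and 5 wild type (WT), all carrying the mark P6 in their source label, which was not interpreted, and 1 array was run per sample. IκBα, the product of Nfkbia, holds NF-kB transcription factors in the cytoplasm. The labels do not give the deleted part of the gene, the way the deletion was made, the part of the intestine, the age or sex of the mice, or whether each sample had its own animal or culture. The p-values therefore rest on the spread among these 10 samples, part of which may be technical.

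In the small intestine and colon, electroneutral salt absorption couples a sodium-proton exchanger in the brush border to a chloride-bicarbonate exchanger beside it. Salt secretion runs the other way: the basolateral Na-K-2Cl cotransporter loads chloride into the cell, and the channel encoded by Cftr releases it into the lumen after cyclic nucleotide signalling. Sodium-driven phosphate and sulfate uptake use the same sodium gradient, which the sodium pump maintains.

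Promoter sequences are shown here for 6 called members, 3 lower and 3 higher, chosen after their values were seen, so that starts of lowered and raised transporters can be read side by side. Slc26a3, Slc26a6 and Slc9a3 were lower in KO, and Slc26a9, Slc9a9 and Slc34a2 were higher. Each line gives the 250 bases before the annotated start, 5′ to 3′ on the gene's strand, from RefSeq on build GRCm38.p6. 33 of the 44 members matched an entry of that promoter table, and Slc4a11 and Slc13a1 are among the other 11. The windows are chr12:31437969-31438218 for Slc26a3, chr9:108853793-108854042 for Slc26a6, chr13:74121163-74121412 for Slc9a3, chr1:131743772-131744021 for Slc26a9, chr9:94669642-94669891 for Slc9a9 and chr5:53049103-53049352 for Slc34a2, all on the plus strand. Capitals mark matches to any of 9 searched motifs.
Slc26a3: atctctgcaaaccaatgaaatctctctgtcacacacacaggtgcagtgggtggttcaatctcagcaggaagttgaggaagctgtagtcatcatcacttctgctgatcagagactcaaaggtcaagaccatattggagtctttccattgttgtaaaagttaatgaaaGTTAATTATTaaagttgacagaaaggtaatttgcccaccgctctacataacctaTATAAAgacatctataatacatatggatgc
Slc26a6: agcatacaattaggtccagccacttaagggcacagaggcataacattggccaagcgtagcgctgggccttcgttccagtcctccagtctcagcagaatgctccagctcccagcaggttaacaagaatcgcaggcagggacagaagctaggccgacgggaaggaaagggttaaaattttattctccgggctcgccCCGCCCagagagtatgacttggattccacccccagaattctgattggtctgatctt
Slc9a3: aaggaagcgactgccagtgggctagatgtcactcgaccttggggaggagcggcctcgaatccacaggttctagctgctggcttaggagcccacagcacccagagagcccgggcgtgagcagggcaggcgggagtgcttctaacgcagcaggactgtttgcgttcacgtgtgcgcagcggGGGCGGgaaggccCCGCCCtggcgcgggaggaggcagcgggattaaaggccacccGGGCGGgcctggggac
Slc26a9: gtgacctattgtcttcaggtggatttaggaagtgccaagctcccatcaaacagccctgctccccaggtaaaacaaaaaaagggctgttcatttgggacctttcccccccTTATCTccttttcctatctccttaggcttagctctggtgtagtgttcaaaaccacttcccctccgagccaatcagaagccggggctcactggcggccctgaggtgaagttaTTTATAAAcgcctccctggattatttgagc
Slc9a9: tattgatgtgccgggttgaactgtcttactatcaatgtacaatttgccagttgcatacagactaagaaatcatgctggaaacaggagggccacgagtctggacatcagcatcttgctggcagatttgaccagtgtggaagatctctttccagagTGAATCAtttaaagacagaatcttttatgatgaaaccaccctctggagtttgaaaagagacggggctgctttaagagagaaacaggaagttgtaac
Slc34a2: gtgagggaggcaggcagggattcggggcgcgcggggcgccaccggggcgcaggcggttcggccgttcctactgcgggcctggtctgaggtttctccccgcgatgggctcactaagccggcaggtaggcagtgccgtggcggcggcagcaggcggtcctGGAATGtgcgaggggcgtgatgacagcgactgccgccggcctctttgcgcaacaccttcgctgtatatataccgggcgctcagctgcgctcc

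The motifs were searched on both strands and are given with the share of 32851 RefSeq windows of the same length that hold them. They were HNF4 as CAAAGTNCA (1.19%), HNF1 by a motif whose match in Slc26a3 is spelled out below (0.371%), GATA as AGATAA (9.99%), CDX as TTTATNG (9.81%), AP-1 as TGANTCA (6.75%), TEAD as GGAATG (12.6%), the Sp box as GGGCGG (32.7%), the TATA box as TATAAA (12.4%) and the kB motif, searched by its usual consensus (3.9%). The window of Slc26a3 held an HNF1 match, GTTAATTATT, from 84 bases before the start and a TATA box from 30 bases before it, and had 1 CG dinucleotide. That of Slc26a9 held a GATA match on the opposite strand and overlapping TATA matches on both strands, the forward one from 28 bases before the start, with 4 CG dinucleotides. Slc9a3 and Slc26a6 held Sp boxes, 3 and 1 of them, with 19 and 9 CG dinucleotides. Slc34a2 held 1 TEAD match and 28 CG dinucleotides, and Slc9a9 held 1 AP-1 match, found on both strands because that motif is its own reverse complement. No match to HNF4, CDX or the kB motif lay in these 6 windows, which says nothing of those factors. The median was 6 CG dinucleotides over all windows and 9 over the 42 windows of members. The lower and the higher genes shown thus both include CG-rich and CG-poor starts. A match is a description of letters and not a measured binding site.

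The arrays were alike in overall level, with medians between 6.03 and 6.23 on the log2 scale on which all levels and changes here are given. A change is KO minus WT. A KO and a WT array correlated at 0.848 to 0.905 across probe sets (Pearson's r, with probe sets not independent of each other), while pairs of KO arrays reached 0.968 to 0.988 and pairs of WT arrays 0.959 to 0.993. Nfkbia, the gene named in the label, stood at 5.27, 5.34, 4.73, 4.72 and 5.23 on KO arrays 1 to 5 and at 9.19, 8.95, 8.98, 8.95 and 9.85 on WT arrays 1 to 5, so no array went against its label. Where its probes lie relative to the deletion was not known here. 3 of 3 measured Y-linked transcripts (Eif2s3y, Uty and Kdm5d) were lower in every KO array than in every WT array, so lower Y-linked signal goes with the KO label and cannot be told apart from it. Epithelial markers were present in both groups: their mean was 10.42 to 10.96 in KO and 10.83 to 11.01 in WT. Single markers moved both ways, with 3 of 10 higher, 3 lower and 4 not past the threshold. Cdx2 changed by -2.16 and Krt18 by 1.43. The absorptive enterocyte list was lower in 10 of 11 measured markers, with a mean over the list of 5.46 to 5.71 in KO and 9.91 to 11.92 in WT. Goblet cell markers were lower in 7 of 9 (list mean 7.26 to 10.02 in KO, 10.01 to 11.02 in WT), Paneth cell markers lower in 6 of 7 and higher in 1 (5.67 to 5.93, 10.21 to 11.01), and enteroendocrine markers lower in 7 of 7 (5.11 to 5.37, 7.50 to 8.15). Of 17 markers of fibroblasts, muscle, endothelium, immune cells and glia, 2 were higher (Csf1r and S100b), 1 lower (Lum) and 14 did not pass, with a list mean of 5.18 to 5.34 in KO and 5.16 to 5.25 in WT, and 8 of the 17 lay under the upper quartile of the negative control probe sets on all arrays. The array's 8 labelling and hybridisation spike-ins had a median change of -0.52, and the largest of them was 0.85 in size. The median of each array's 5222 negative control probe sets lay between 4.30 and 5.10 and their upper quartile between 5.37 and 6.14. A level in that range makes a fold change a lower limit, and no gene was called absent.

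The ion transporters split evenly between gain and loss. 10 of the 44 were higher in KO, 10 were lower and 24 did not pass the threshold, an adjusted p under 0.05 in limma's linear model fitted on all probe sets with Benjamini-Hochberg adjustment over the 19572 that carry 1 symbol. 45.5% of the members were thus called, where the share over all 19572 probe sets was 26.7% (15% higher and 11.7% lower). By family the share called ran from 33.3% (Na+/Ca2+ exchangers, n = 3) to 57.1% (Na+/H+ exchangers, n = 7), apart from the 1 sulfate cotransporter gene. The median change of the members was -0.03 and that of all probe sets -0.01, while the median size of a change was 0.45 for members and 0.21 for all. In 16 of the called members the ranges of the groups were separate, which held with a call for 20.4% of all probe sets. 7 called members differed by over 4-fold, against 4.53% of all. The losses were led by the apical salt-absorbing exchangers Slc26a3 and Slc9a3, the sulfate cotransporter Slc13a1 and the anion exchanger Slc26a6. The gains were led by Slc4a11 and Slc26a9.

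**Figure D1:**
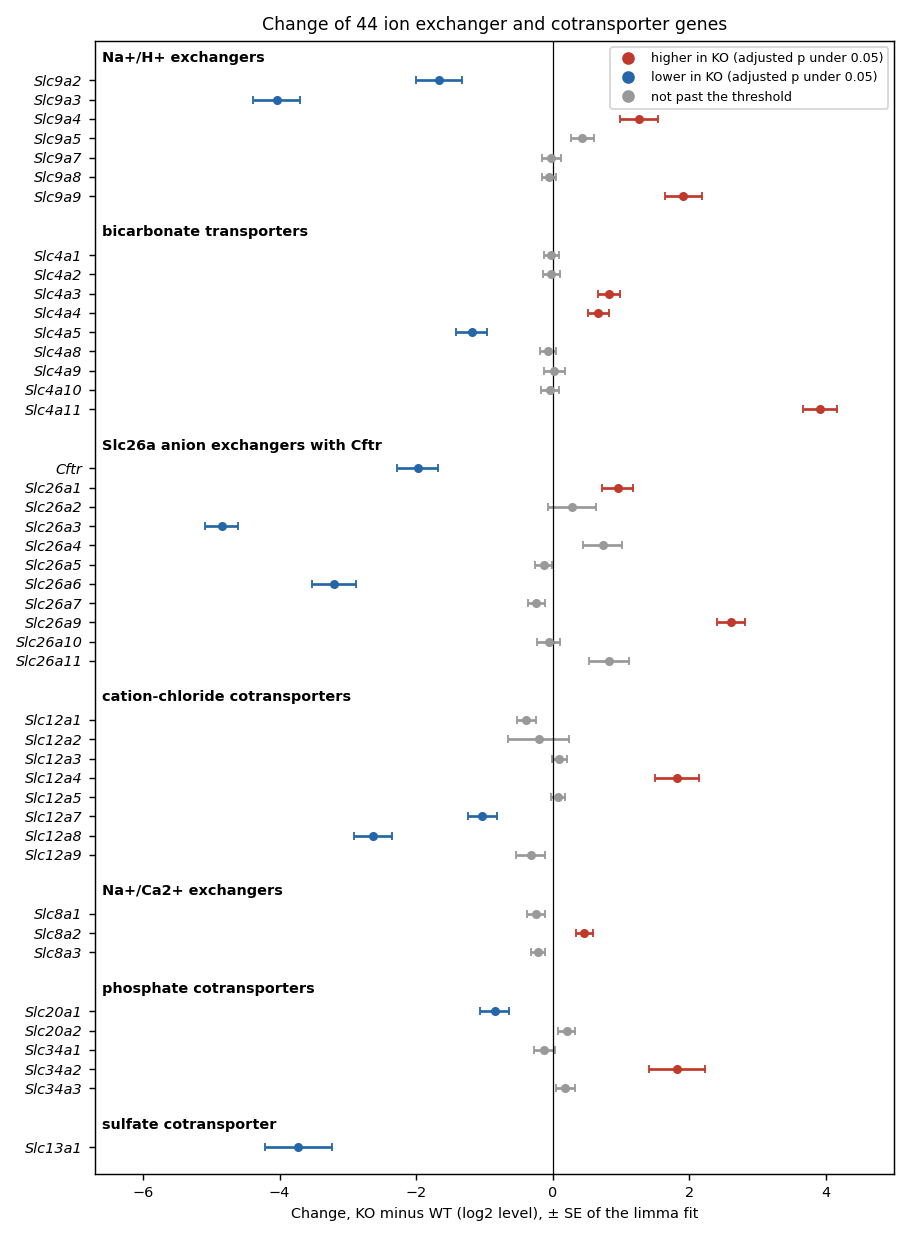
Change of each of the 44 genes, KO minus WT in log2 level, with the standard error of the limma fit as bars, grouped by transporter family. Points run from -4.85 for Slc26a3 to 3.91 for Slc4a11, and most families hold points on both sides of 0.

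Sodium-proton exchangers raise the pH of the cell and take up sodium. Of 7 measured Slc9a genes 2 were lower, 2 were higher and 3 did not pass. Slc9a3, the brush border exchanger (NHE3) that carries most intestinal sodium absorption, stood at 6.19, 5.84, 6.26, 5.88 and 6.06 on KO arrays 1 to 5 and at 10.94, 10.12, 8.88, 10.93 and 9.59 on WT arrays 1 to 5. Every KO value lay at least 2.62 below every WT value, and the WT arrays spread far more than the KO arrays. With means of 6.05 ± 0.19 in KO and 10.09 ± 0.89 in WT (SD, n = 5 each), Slc9a3 was 16.5-fold lower (limma, change -4.04, standard error 0.35, adjusted p = 4.03e-06).

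Slc9a2 encodes NHE2, a further apical exchanger. Its levels were 6.87, 8.30, 6.62, 7.63 and 6.76 in KO and 9.24, 8.60, 8.35, 9.59 and 8.71 in WT. KO replicate 2 came within 0.06 of the lowest WT array, so the groups were barely apart. Slc9a2 changed by -1.66 with a standard error of 0.34 (limma, adjusted p = 0.00293).

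Slc9a4, which encodes the basolateral exchanger NHE4 known from gastric parietal cells, is the direct neighbour of Slc9a2 on chromosome 1 in the RefSeq gene order, and it went the other way. It stood at 6.29, 7.53, 6.16, 6.82 and 6.96 in KO and at 4.93, 5.64, 5.51, 5.24 and 6.14 in WT. KO replicate 3 and WT replicate 5 were 0.02 apart, and 4 of the 5 WT values lay under the upper quartile of their array's negative controls. Slc9a4 rose by 1.26 with a standard error of 0.28 (limma, adjusted p = 0.00512).

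Slc9a9 encodes the endosomal exchanger NHE9, which tunes the pH of recycling vesicles. KO arrays read 8.11, 6.67, 6.58, 7.48 and 7.64, and WT arrays 5.12, 5.25, 5.29, 5.75 and 5.51. All WT values were under the upper quartile of the negative controls, and all KO values were above it. The rise was 1.91 with a standard error of 0.27 (limma, adjusted p = 0.000252), a size that the low WT level may understate. The Golgi exchanger gene Slc9a8 stood at 9.18 ± 0.12 in KO and 9.24 ± 0.13 in WT (SD, n = 5 each), a difference of -0.05 with a standard error of 0.10. Slc9a7, for the exchanger of the trans-Golgi network, changed by -0.02 at a mean level no higher than the highest negative control median, and Slc9a5 by 0.43 (limma, adjusted p = 0.0884). Slc9a5 passed without KO replicate 4 (0.53, limma, adjusted p = 0.0449).

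Slc26a proteins exchange chloride for bicarbonate, sulfate or oxalate, and Cftr encodes an ATP-gated chloride and bicarbonate channel that opens after phosphorylation by cyclic nucleotide-dependent kinases and that several of them bind. Of these 11 genes 3 were lower, 2 were higher and 6 did not pass. The most strongly lowered member of all was Slc26a3 (DRA, down-regulated in adenoma), the chloride-bicarbonate exchanger that partners NHE3 in salt absorption and whose loss causes congenital chloride diarrhoea. It read 5.75, 5.67, 5.73, 5.63 and 5.54 in KO and 9.68, 10.91, 10.14, 11.17 and 10.66 in WT. The KO values lay within a narrow band, on 3 arrays under the upper quartile of the negative controls, and 3.94 separated the highest of them from the lowest WT array. At 5.66 ± 0.08 against 10.51 ± 0.60 (SD, n = 5 each), Slc26a3 was 28.8-fold lower (limma, change -4.85, standard error 0.24, adjusted p = 3.41e-08), a size that the low KO level may understate. It ranked 78 from the bottom among the changes of all 19572 probe sets.

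Slc26a6 (PAT1), the brush border exchanger of chloride for oxalate and bicarbonate, followed the same order. KO arrays stood at 6.33, 6.13, 6.52, 6.23 and 6.08 and WT arrays at 9.25, 9.76, 8.23, 10.47 and 9.59. The groups were 1.71 apart, with WT replicate 3 lowest and WT replicate 4 highest of the WT arrays. Slc26a6 was 9.21-fold lower (limma, change -3.20, standard error 0.32, adjusted p = 1.56e-05).

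Cftr was lower too, but kept a level well above the negative controls on every array. It stood at 8.37, 7.79, 8.49, 8.76 and 7.36 in KO and at 10.66, 10.02, 10.49, 9.36 and 10.15 in WT. WT replicate 4 was the lowest WT array here, 0.60 above the highest KO array. The means were 8.15 ± 0.57 and 10.13 ± 0.50 (SD, n = 5 each), so Cftr was 3.95-fold lower (limma, change -1.98, standard error 0.29, adjusted p = 0.000332).

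Slc26a9, a chloride transporter of stomach and airway epithelium with channel-like activity, rose, opposite to Slc26a3 and Slc26a6. KO values were 8.21, 9.08, 9.37, 9.04 and 8.39, and WT values were 6.47, 6.24, 6.12, 6.09 and 6.12. The lowest KO array lay 1.74 above the highest WT array, and the WT arrays were tight. Slc26a9 was 6.10-fold higher (limma, change 2.61, standard error 0.21, adjusted p = 2.25e-06).

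The sulfate and oxalate exchanger gene Slc26a1 was also higher, at 4.75 to 5.64 in KO and 4.02 to 5.06 in WT, with WT replicate 1 inside the KO range. Its change was 0.95 with a standard error of 0.22 (limma, adjusted p = 0.008) at a level near the negative controls. Slc26a2, the sulfate transporter whose loss causes cartilage disease, had the largest SD of any member among the KO arrays, and ran from 7.61 to 10.02 against 8.33 to 8.91 in WT, and changed by 0.28 (limma, adjusted p = 0.630). Slc26a4 (pendrin), separated from Slc26a3 by 1 protein-coding gene on chromosome 12, ran from 4.62 to 6.21 in KO and from 4.39 to 4.63 in WT. Its change of 0.73 did not pass (limma, adjusted p = 0.0816), but it passed without KO replicate 1 (0.88, limma, adjusted p = 0.0456) or KO replicate 2 (0.88, limma, adjusted p = 0.0395). KO replicates 3 and 4 held its 2 highest values, 5.76 and 6.21.

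Slc26a11, a lysosomal and plasma membrane anion transporter, changed by 0.82 (limma, adjusted p = 0.0587), and without WT replicate 4 by 1.07 (limma, adjusted p = 0.00499). The auditory motor protein gene Slc26a5 and Slc26a7 and Slc26a10 changed by -0.13, -0.24 and -0.06, and none of the 3 passed.

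**Figure D2:**
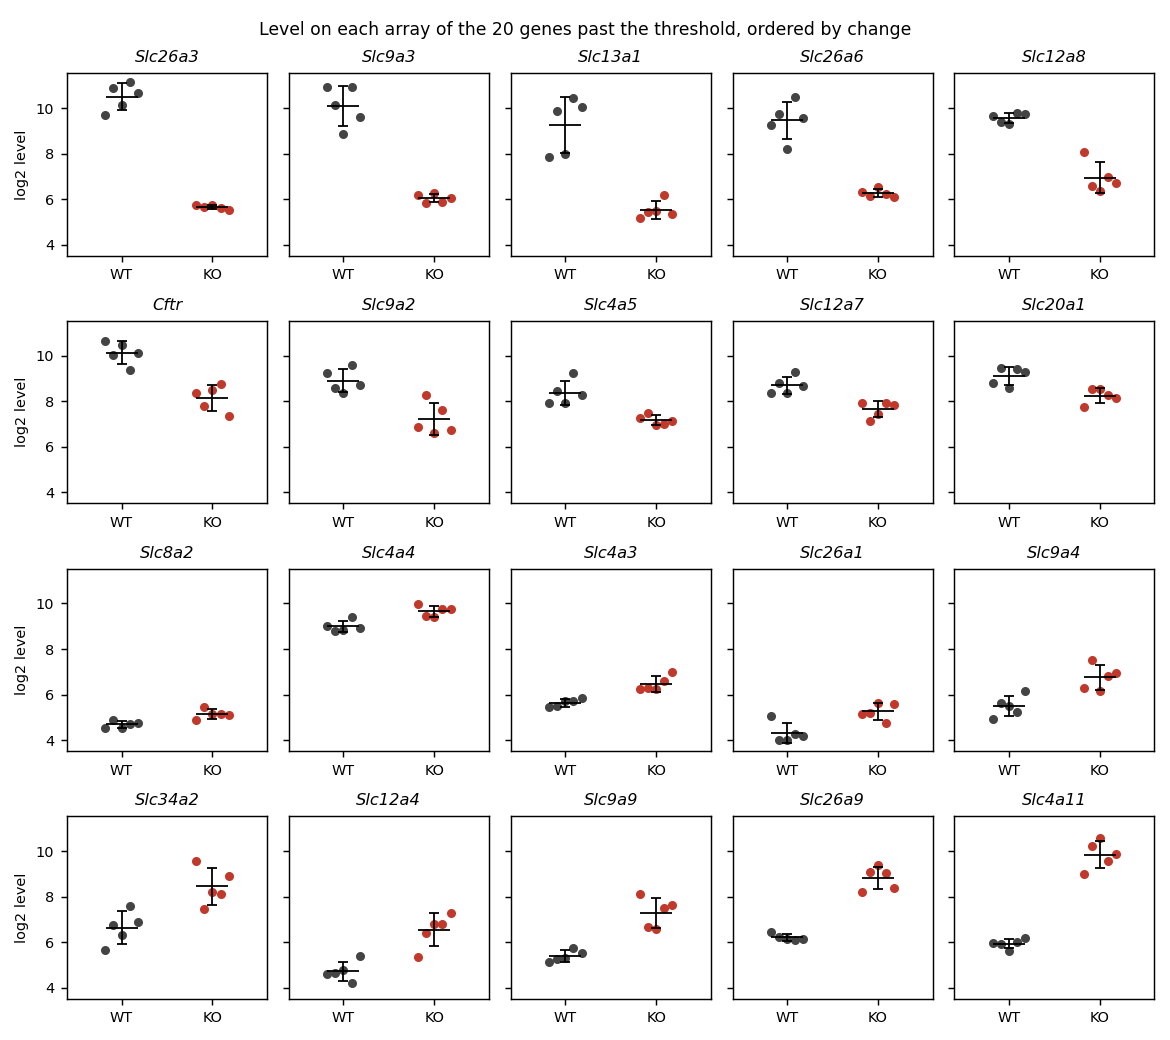
Log2 level on each array of the 20 genes past the threshold, 5 WT and 5 KO points per gene with the mean and SD, ordered from the largest loss to the largest gain. Slc26a3 in KO lies between 5.54 and 5.75 and in WT between 9.68 and 11.17, while Slc20a1 and Slc9a4 have groups that almost touch.

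Most Slc4a proteins carry bicarbonate, either in exchange for chloride or together with sodium. Of 9 measured Slc4a genes 3 were higher, 1 was lower and 5 did not pass. Slc4a11, an electrogenic carrier of proton equivalents known from the corneal endothelium, had the largest rise of all members. On KO arrays it read 9.01, 10.23, 10.58, 9.56 and 9.86, and on WT arrays 5.96, 5.93, 5.63, 6.0 and 6.18. The groups stood 2.83 apart, with KO replicate 1 the lowest of its group. The means were 9.85 ± 0.61 and 5.94 ± 0.20 (SD, n = 5 each), a 15.0-fold rise (limma, change 3.91, standard error 0.25, adjusted p = 3.26e-07). It ranked 95 from the top among all 19572 probe sets.

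Slc4a3, for the anion exchanger AE3, was 6.23, 6.28, 6.23, 6.58 and 7.0 in KO and 5.45, 5.48, 5.70, 5.71 and 5.87 in WT. KO replicate 5 was the highest, and the groups were 0.36 apart. Of the 5 WT values 2 were above the upper quartile of their array's negative controls. The rise was 0.82 with a standard error of 0.16 (limma, adjusted p = 0.00237).

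Slc4a4 encodes NBCe1, the basolateral sodium bicarbonate cotransporter that supplies bicarbonate for secretion. It ran from 9.40 to 9.98 in KO and from 8.81 to 9.41 in WT, where WT replicate 4 alone reached the KO range. The rise was 0.67 with a standard error of 0.15 (limma, adjusted p = 0.00594). Tested against a 1.2-fold change instead of no change, it did not pass (limma's treat, adjusted p = 0.0637).

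The related Slc4a5 (NBCe2) moved the other way, with 7.27, 7.51, 6.97, 6.99 and 7.15 in KO and 7.94, 8.47, 7.91, 9.24 and 8.27 in WT. The groups did not overlap, and WT replicate 4 was the highest array. It changed by -1.19 with a standard error of 0.23 (limma, adjusted p = 0.00234). Slc4a2, the widely expressed basolateral anion exchanger AE2, stood at 7.60 ± 0.23 in KO and 7.62 ± 0.11 in WT (SD, n = 5 each), a difference of -0.02 with a standard error of 0.12. The red cell exchanger gene Slc4a1 and the genes Slc4a8, Slc4a9 and Slc4a10 changed by -0.02, -0.07, 0.02 and -0.05, and none of the 4 passed.

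Slc12a proteins carry chloride with sodium or potassium. Of 8 measured genes 1 was higher, 2 were lower and 5 did not pass. Slc12a8, a family member expressed in intestine whose substrate is debated, stood at 8.07, 6.56, 6.37, 7.0 and 6.72 in KO and at 9.65, 9.37, 9.32, 9.80 and 9.75 in WT. KO replicate 1 was the highest KO array, still 1.25 under the lowest WT array. Slc12a8 was 6.21-fold lower (limma, change -2.64, standard error 0.28, adjusted p = 2.03e-05).

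The potassium-chloride cotransporters KCC1 and KCC4 parted. Slc12a7 (KCC4) read 7.94, 7.15, 7.45, 7.94 and 7.84 in KO and 8.37, 8.82, 8.35, 9.28 and 8.67 in WT, without overlap. It changed by -1.03 with a standard error of 0.21 (limma, adjusted p = 0.00299). Slc12a4 (KCC1) ran from 5.36 to 7.30 in KO and from 4.22 to 5.39 in WT, with KO replicate 1 just under WT replicate 5, and rose by 1.82 with a standard error of 0.32 (limma, adjusted p = 0.00129). All its WT values lay under the upper quartile of the negative controls.

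Slc12a2 encodes NKCC1, the basolateral cotransporter that loads chloride for secretion. It was 10.97, 10.92, 11.46, 10.98 and 10.83 in KO and 11.85, 11.40, 12.0002, 9.21 and 11.73 in WT. WT replicate 4 lay below every KO array, while 3 of the other 4 WT arrays lay above every KO array. With all arrays it changed by -0.21 with a standard error of 0.45 (limma, adjusted p = 0.789). Without WT replicate 4 it was -0.71 (limma, adjusted p = 0.00733), so this 1 array decided the call. Slc12a9 changed by -0.33 (limma, adjusted p = 0.318) and, without WT replicate 1, by -0.54 (limma, adjusted p = 0.0111). The kidney cotransporter gene Slc12a1 (NKCC2) changed by -0.39 (limma, adjusted p = 0.0731) and passed without WT replicate 1 (-0.45, limma, adjusted p = 0.0461) or WT replicate 3 (-0.46, limma, adjusted p = 0.0425). Slc12a3 (NCC) and the neuronal Slc12a5 (KCC2) changed by 0.09 and 0.07 at low levels and did not pass.

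Phosphate and sulfate enter with sodium. Slc13a1 (NaS1), the apical sodium sulfate cotransporter of kidney and small intestine, read 5.16, 5.45, 5.47, 6.19 and 5.34 in KO and 7.85, 9.89, 7.97, 10.45 and 10.07 in WT. It had the largest SD of any member in WT, where replicates 1 and 3 were the low arrays, and the groups were still 1.66 apart. The same WT replicates 1 and 3 had the lowest means of the absorptive enterocyte list, 9.91 and 10.69, beside 11.58, 11.92 and 11.45 in WT replicates 2, 4 and 5. The means of Slc13a1 were 5.52 ± 0.39 and 9.25 ± 1.24 (SD, n = 5 each), and the fall was 13.2-fold (limma, change -3.73, standard error 0.49, adjusted p = 0.000133). On 2 of the 5 KO arrays Slc13a1 exceeded the upper quartile of the negative controls, so the low KO level may understate the fall. The part of the enterocyte markers in the fall was not tested.

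Of 5 phosphate cotransporter genes 1 was higher, 1 was lower and 3 did not pass. Slc34a2 (NaPi-IIb), the main regulated phosphate transporter of the intestinal brush border, went against the other apical absorbers. It was 9.58, 7.46, 8.22, 8.10 and 8.89 in KO and 5.64, 6.76, 6.29, 7.60 and 6.87 in WT. KO replicate 2 and WT replicate 4 overlapped, and the other arrays were apart. Slc34a2 was 3.52-fold higher (limma, change 1.82, standard error 0.41, adjusted p = 0.00634).

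Slc20a1, for the widely expressed phosphate transporter PiT1, read 7.75, 8.56, 8.52, 8.30 and 8.14 in KO and 8.79, 9.46, 8.57, 9.42 and 9.28 in WT. KO replicate 2 and WT replicate 3 were 0.01 apart. It changed by -0.85 with a standard error of 0.21 (limma, adjusted p = 0.00976), and it did not pass against a 1.2-fold change (limma's treat, adjusted p = 0.0526). PiT2, encoded by Slc20a2, stood at 8.84 ± 0.16 in KO and 8.63 ± 0.20 in WT (SD, n = 5 each). Its difference of 0.21 had a standard error of 0.12 and did not pass, and the kidney genes Slc34a1 and Slc34a3 changed by -0.13 and 0.18 without passing.

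Sodium-calcium exchangers, which expel calcium from excitable cells, were measured at low levels. Slc8a2 was 4.88, 5.47, 5.16, 5.12 and 5.09 in KO and 4.53, 4.88, 4.54, 4.71 and 4.77 in WT. KO replicate 1 lay 0.01 above WT replicate 2, and 1 of the 10 values was above the upper quartile of its array's negative controls. The change of 0.46 with a standard error of 0.12 passed (limma, adjusted p = 0.0162) but not against a 1.2-fold change (limma's treat, adjusted p = 0.294). Slc8a1 and Slc8a3 changed by -0.25 and -0.22 and did not pass. 5 members, Slc9a7, Slc4a8, Slc26a7, Slc12a5 and Slc8a1, lay under that upper quartile on all 10 arrays, and none of them was called.

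Across arrays the lowered and the raised members spread differently. All 10 lowered members lay above the upper quartile of the negative controls on every WT array, and in 7 of them the SD was larger in WT than in KO. Of the 10 raised members 7 were above it on every KO array, 3 on every WT array and 4 on none of the WT arrays, and in 8 the SD was larger in KO. These counts follow in part from the calls, since a lowered member has its higher level in WT and a raised one in KO. Whether the SD goes with the level was not tested. Among the WT arrays, replicate 4 was the highest in 21 of the 44 members, and it was the highest in 7 of the 10 lowered ones. 20 of the 20 called members kept their call without any 1 of the 10 arrays. In these bulk samples fewer cells of a type and less RNA per cell cannot be told apart. The lowered apical genes and the enterocyte list given above were both lower in KO. Among the WT arrays, replicate 4 had the highest list mean, 11.92, and replicate 1 the lowest, 9.91. Slc26a3 and Slc13a1 were highest in replicate 4 and lowest in replicate 1. Slc26a6 and Slc9a2 were also highest in replicate 4. Slc9a3 was nearly level, at 10.93 in replicate 4 and 10.94 in replicate 1, while Cftr was lowest in replicate 4 and highest in replicate 1. The part of cell makeup in the change of the lowered apical genes was not tested. 4 of the called members (Slc4a3, Slc4a4, Slc8a2 and Slc20a1) changed by no more than the largest spike-in change of 0.85.

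**Figure D3:**
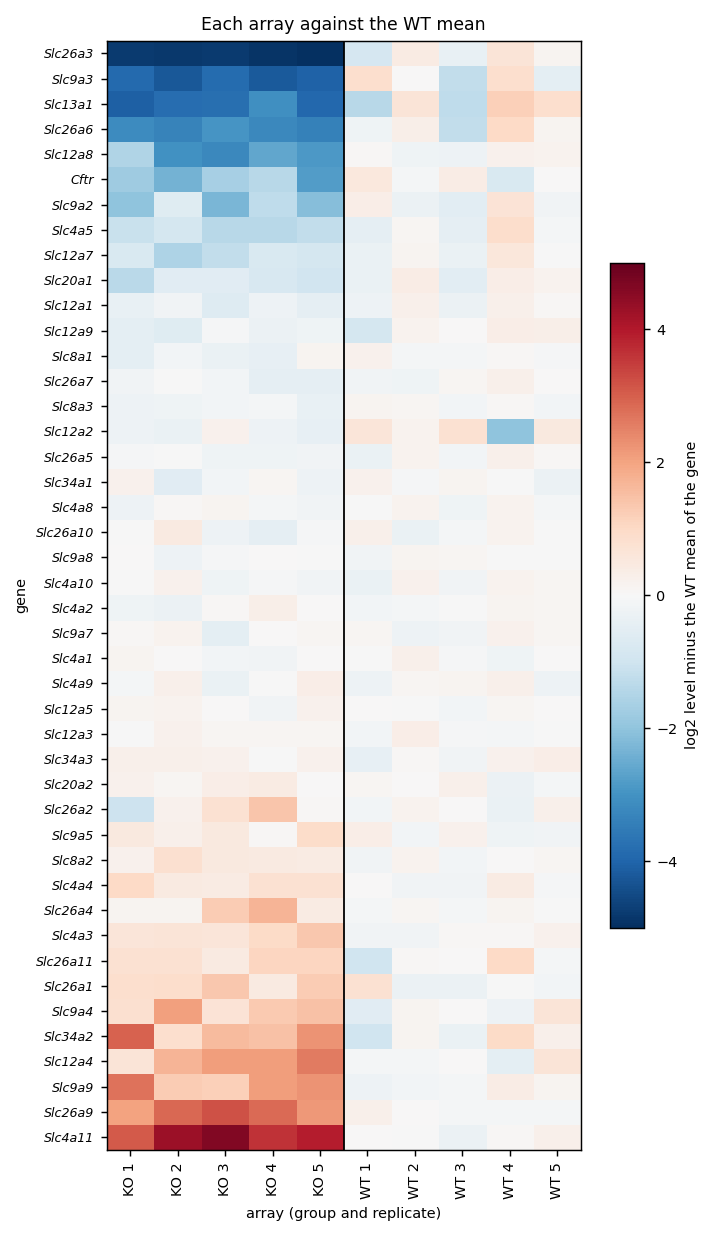
Log2 level of each gene on each array minus the WT mean of that gene, with KO arrays on the left and WT arrays on the right, and genes ordered by change. The KO columns resemble each other at both ends of the order, and Slc12a2 in WT replicate 4 stands out as the deepest blue cell among the WT arrays.

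Genes that work with these transporters were followed in 6 lists. The counts of each list stand beside the share over all 19572 probe sets, 26.7% called (15% higher and 11.7% lower). The cyclic nucleotide list holds hormones, receptors, enzymes and kinase subunits that drive or restrain the signalling behind chloride secretion and sodium uptake. It was lower in 7 of 12 measured genes and higher in 1, with 4 not past the threshold and a median change of -1.41. Gucy2c, the guanylate cyclase receptor for guanylin and for bacterial heat-stable toxin, was 5.27, 5.09, 5.01, 5.92 and 5.27 in KO and 10.54, 11.19, 10.87, 11.33 and 11.11 in WT. The groups were far apart, and it changed by -5.70 with a standard error of 0.19 (limma, adjusted p = 1.95e-09). Its ligand genes Guca2a (guanylin) and Guca2b (uroguanylin) changed by -3.14 and -4.11. Pde5a, which breaks down cyclic GMP, changed by -3.14, Prkg2, the cyclic GMP-dependent kinase that acts on NHE3 and the Cftr channel, by -2.09, the receptor gene Vipr1 by -2.94 and the muscarinic receptor gene Chrm3 by -0.73. The gene that rose was Prkar2b, a regulatory subunit of the cyclic AMP-dependent kinase (2.78, limma, adjusted p = 6.78e-07).

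Scaffolds and proteins that bind the exchangers went both ways, with 3 of 12 higher, 4 lower and 5 not past the threshold, and a median change of 0.14. Chp2, a calcineurin B homologue that binds sodium-proton exchangers, stood at 4.90 ± 0.14 in KO and 8.71 ± 0.97 in WT (SD, n = 5 each) and changed by -3.81 (limma, adjusted p = 1.23e-05). The related Chp1 stood at 10.17 ± 0.13 in KO and 9.87 ± 0.42 in WT (SD, n = 5 each) and did not pass (limma, adjusted p = 0.275). Among the PDZ scaffolds that hold NHE3 and its partners at the brush border, Pdzd3 changed by -1.72 and Slc9a3r2 (NHERF2) by 1.80, while Slc9a3r1 (NHERF1) stood at 10.38 ± 0.24 and 10.40 ± 0.42 (SD, n = 5 each). Ahcyl1 (-0.60) and Shank2 (0.65) passed, as did Pdzk1 (-0.65) and Ezr (0.32). Pdzk1 was not called when any 1 of KO replicates 1 and 5 and WT replicates 2 and 5 was left out (limma, adjusted p = 0.0503 to 0.0621). For Ezr this held for KO replicates 1 and 2 and WT replicates 2 and 3 (limma, adjusted p = 0.0520 to 0.0569).

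Of 24 measured ion channel genes 9 were higher, 1 was lower and 14 did not pass, with a median change of 0.19. Ano1, the calcium-activated chloride channel, was 11.70, 11.64, 11.92, 11.57 and 11.42 in KO and 7.57, 7.35, 7.03, 6.96 and 7.99 in WT, a direction opposite to that of Cftr. It rose by 4.27 with a standard error of 0.19 (limma, adjusted p = 1.22e-08). Clcn5, an endosomal chloride-proton exchanger, rose by 1.01 and the magnesium channel gene Trpm6 by 1.05. Trpm6 exceeded the upper quartile of its array's negative controls on KO replicate 5 alone, and Trpv6 on KO replicate 2 alone. Trpv6 (0.73) and Scnn1a (0.85) also kept their calls when any 1 array was left out. Kcnn4 (1.22), Kcne3 (1.68), Kcnk1 (0.76) and Ano10 (0.39) each lost theirs without 1 of 2 to 7 of the arrays. The count of 9 was 5 without KO replicate 1 or KO replicate 3. The 1 lower gene, named after its value was seen, was Clcn3 (-0.43), which was not called when any 1 of KO replicates 1, 2, 4 and 5 and WT replicates 2 and 3 was left out (limma, adjusted p = 0.0516 to 0.0640). Without WT replicate 3, 2 channel genes were lower.

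Of 11 measured genes of sodium and proton pumps 1 was higher, 1 was lower and 9 did not pass, with a median change of -0.04. The pump regulator gene Fxyd3 rose by 2.09 (limma, adjusted p = 2.39e-06). The pump subunit gene Atp1b1 changed by -0.47 (limma, adjusted p = 0.0383) and lost its call without any 1 of 8 arrays, KO replicates 2 to 5 and WT replicates 1, 2, 4 and 5 (limma, adjusted p = 0.0603 to 0.0851). Atp12a changed by -0.29 and did not pass (limma, adjusted p = 0.109), but it passed without KO replicate 2 (limma, adjusted p = 0.0223).

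The list of kinases, ubiquitin ligases and other regulators of the transporters, called the kinase list below, was higher in 3 of 16 genes and lower in 2. The other 11 did not pass, and the median change was -0.02. Sgk3, a kinase that raises the surface amount of several transporters, rose by 2.16 (limma, adjusted p = 0.00041), the ubiquitin ligase gene Nedd4l by 0.67 and Wnk1, which controls the cation-chloride cotransporters through further kinases, by 0.51. Sgk2 (-0.57) and Ahcyl1, which stands on 2 of the lists, were lower. Sgk2 exceeded the upper quartile of its array's negative controls on WT replicate 5 alone. Wnk1 was not called when any 1 of KO replicates 3, 4 and 5 and WT replicates 2, 4 and 5 was left out (limma, adjusted p = 0.0583 to 0.0829).

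Of 11 phosphate, calcium and sulfate partners 2 were higher, 4 were lower and 5 did not pass, with a median change of -0.14. Papss2 and Papss1, which activate sulfate after its uptake, changed by -3.49 and -1.14 (limma, adjusted p = 2.81e-05 and 4.17e-06), and Slc13a1 was lower in the same arrays. The vitamin D receptor gene Vdr changed by -1.56 and S100g, the calcium-binding protein of enterocytes, by -2.56. The 2 higher genes were the mitochondrial sodium-calcium exchanger gene Slc8b1 (0.85) and Sat1 (1.28), a polyamine acetyltransferase that does not carry ions.

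**Figure D4:**
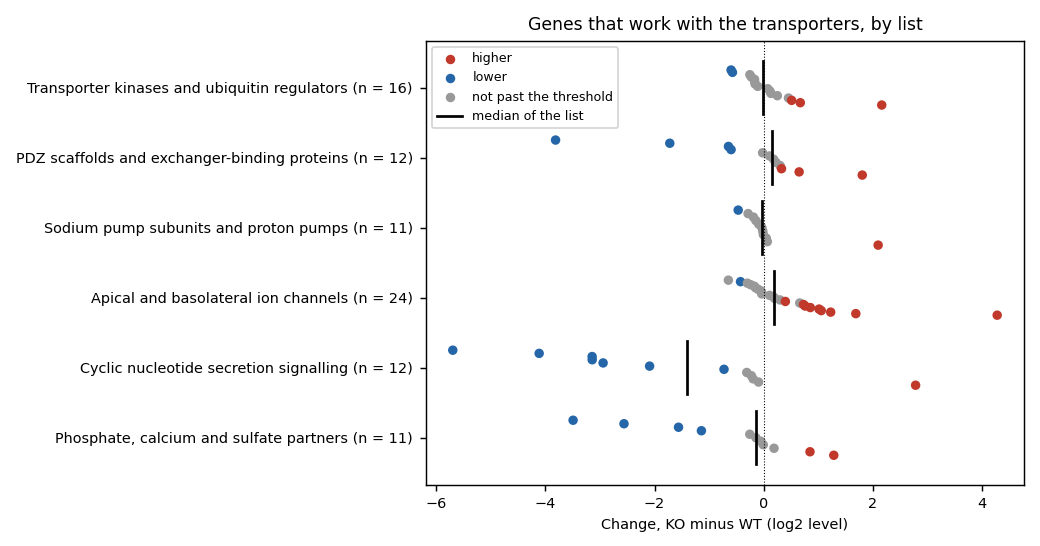
Change of each partner gene, KO minus WT in log2 level, by list, with the median of each list as a black line and colours for higher, lower and not past the threshold. Most points of the cyclic nucleotide list lie left of 0, with Gucy2c at -5.70, and the ion channel list reaches furthest to the right with Ano1 at 4.27.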

How the data were processed

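Total RNA of 5 KO and 5 WT intestinal organoid samples was labelled with biotin from 100 ng by the GeneChip WT PLUS method, per the labels' protocols. The values are the authors' log2 levels, 1 for each probe set on each array, and the submitters' processing notes name RMA and limma. The sources used here do not give versions, a genome build or whether all arrays were normalized together. Background correction was not varied, since neither scanner files nor detection calls were used here. The number of arrays limits precision.

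The log2 levels were taken as deposited. A linear model of KO minus WT was fitted on all 28846 probe sets in limma 3.58.1 (R 4.3.3). Benjamini-Hochberg adjustment covered the 19572 that carry 1 symbol, and the threshold was 0.05. The probe set with the highest mean stood for its gene. Tables were made with pandas 2.3.3 and numpy 2.4.6 under Python 3.11.15, and figures with matplotlib 3.10.9. Members and lists were chosen with earlier results of these data known. Array values are given by rule for called members without overlap of groups, Cftr among them, and for Nfkbia. Those of Slc34a2, Slc12a2, Gucy2c and Ano1 were added after their values were seen. The 3 partner genes with the smallest p of each list are named, and other genes were named after their values were seen. All 44 members matched a RefSeq gene identifier (GRCm38.p6), which gave names, gene order and promoters only. In a simulation of this comparison, with 200 changed among 19572 probe sets, 30% of changes of 0.5, 76% of 1, 98% of 2 and 100% of 4 were recovered, with 6 false calls among 158. Far more genes were called here, so these rates need not hold.

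Alternatives changed the normalization, the filter on dim probe sets, the variance model, the array weights, the null change, the probe sets of a gene, or left out arrays. The replicate numbers were checked as pairs: the correlation of deviations of same-numbered samples was above 0.1 for 2 of the 5 numbers. It was 0.36 for replicate 3 and 0.18 for replicate 4, where the largest with another number was 0.127 and 0.034. Pairs are thus not excluded. The labels do not say that numbers pair samples, so the main fit had no pairs, and a replicate block was fitted as an alternative.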

Additional observations from a re-analysis of the deposited data

Results flagged for a closer look

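8 values lay far from the other 4 of their group, with a gap that exceeded Dixon's critical value for 5 samples, among the 88 groups of 5 tested. Chance flags about 1 in 20 groups. In WT replicate 4, Slc12a2 stood at 9.21, where the other WT arrays held 11.40 to 12.0002, and in KO replicate 3 it stood at 11.46 against 10.83 to 10.98. In WT replicate 1, Slc26a1 was 5.06, above 4.02 to 4.29 on the other WT arrays, and Slc12a9 was 6.83, below 7.72 to 8.04. Slc12a3 was 5.65 in WT replicate 2 against 5.16 to 5.28. Slc9a7 was 4.38 in KO replicate 3 against 4.89 to 5.03, Slc9a8 was 8.98 in KO replicate 2 against 9.19 to 9.27, and Slc34a3 was 5.17 in KO replicate 4 against 5.37 to 5.44. Of these genes Slc26a1 is the 1 that was called, and it kept its call without WT replicate 1.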

How the results depend on the processing

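Of the 20 called members, 17 kept their call under all alternatives that could be fitted to them, and none turned direction. The 3 exceptions, Slc4a4, Slc8a2 and Slc20a1, did not pass against a 1.2-fold change. Without any 1 array, 10 to 11 members were higher and 10 to 12 lower, and under the other alternatives 8 to 12 were higher and 9 to 11 lower. 6 of the 24 uncalled members (Slc9a5, Slc26a4, Slc26a11, Slc12a1, Slc12a2 and Slc12a9) passed under 1 or more alternatives. Against a 1.2-fold change, which by construction asks for larger changes, 1772 probe sets were higher and 1262 lower in place of 2928 and 2296. In that setting 0 Na+/Ca2+ exchangers were higher, 0 phosphate cotransporters were lower and 1 gene of the kinase list was lower. Of the other lists, 1 scaffold gene was higher, 0 pump genes were lower, and 3 channel genes were higher and 0 lower. With array weights, 4 Slc26a genes were higher, and 2 pump and 2 channel genes were lower. With dim probe sets left out, which removed 7 members, 0 Na+/Ca2+ exchangers were higher and 1 gene of the kinase list was lower. With cyclic loess 0 pump genes were lower. With KO replicate 2 and WT replicate 4 both left out, 1 gene of the kinase list and 0 channel genes were lower. Leaving out 1 array gave 2 to 4 lower cation-chloride cotransporters (4 without WT replicate 1), 0 to 1 lower pump genes, and 5 to 10 higher and 0 to 2 lower channel genes. Where no cause is named, the cause was not tested. With the replicate block, 11 members were higher and 11 lower, and 1 gene of the kinase list was lower. Slc26a11 passed there (0.82, limma, adjusted p = 0.0358), as did Slc12a1 (-0.39, limma, adjusted p = 0.0383). Changes of genes near the negative controls may be understated, and the number of arrays limits the precision.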
